A study of Mus musculus with 75 samples.

Results

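Lipid-associated macrophage genes are a set that macrophages switch on when they take up lipid and cell debris, and they were followed here with Gpnmb, which encodes a glycoprotein of lysosomes. The 10 genes are Gpnmb, Trem2, Cd9, Mmp12, Lpl, Cd68, Fabp5, Lgals3, Itgax and Cd63, out of 55536 genes in the count table, and each was found by its symbol. They were selected on results of these data, as a list of names: Gpnmb stood out in high-risk against low-risk livers of 5 months and in uninvolved livers of 10 months. The contrasts of high-risk or uninvolved livers with low-risk livers or vehicles are therefore given as a description, with no test. Livers came from male C57Bl/6 mice whose dams received vehicle or the organotin tributyltin (TBT) through their drinking water up to weaning. The dose of TBT was a daily 0.5 mg/kg of body weight, or 3.07 µM. At 3 weeks there were 7 vehicle and 8 TBT samples. The 5-month samples comprised 8 of vehicle, 16 of low-risk TBT and 10 of high-risk TBT mice. The 10-month samples comprised 6 vehicle livers, 5 low-risk TBT livers, 5 samples labelled as uninvolved liver of high-risk TBT mice and 7 tumors of TBT mice. The basis of the risk label at 5 months is not stated, so whether it rests on expression is unknown. The libraries hold bulk RNA of liver or tumor, so more macrophages and more RNA per macrophage cannot be told apart.

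As background, Trem2 is a macrophage receptor for lipids and lipoproteins that signals through Tyrobp, and in fatty and injured liver it marks macrophages that gather around dying or fat-laden hepatocytes. Gpnmb, Cd68 and Cd63 encode membrane proteins of lysosomes and late endosomes, Cd9 a tetraspanin of the cell surface and Itgax the integrin subunit CD11c of dendritic cells and some macrophages. Mmp12 encodes macrophage elastase, Lgals3 the secreted lectin galectin-3, Lpl lipoprotein lipase, which frees fatty acids from circulating triglyceride, and Fabp5 a fatty acid carrier of the cytosol. Kupffer cells are the resident macrophages of the liver, and Clec4f, Timd4 and Cd163 mark them. Lpl, Fabp5, Cd9, Cd63 and Lgals3 are also made by cells other than macrophages.

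Libraries held from 2.83 to 45.4 M counts (median 18.1 M), and 6 of 75 stood apart by few counts, many genes with a count or a high mitochondrial share. The uninvolved libraries held 34.8 to 44.6 M counts, 24676 to 28715 genes with a count and 4.20 to 5.85% mitochondrial counts. Vehicle, low-risk and TBT tumor libraries of 10 months held at most 33.5 M, 23868 and 3.83%. In contrasts with uninvolved liver, this difference between libraries cannot be told apart from that between tissues. Levels are in CPM, the usual scaling of counts to the library total, after TMM scaling, which corrects for the make-up of each library. Plain CPM would raise high-risk livers by 0.23, uninvolved livers by 0.16 and tumors by 0.16 on the log2 scale, and lower 5-month and 10-month vehicles by 0.16 and 0.15. The libraries labelled 5-month vehicle 4 and 6 carried most of these genes at high-risk levels, so results with 5-month vehicles are also given without each of them. No fit was chosen to leave out both, so how far results rest on the pair was not tested. Vehicle 9 of this age was the library with 2.83 M counts. Uninvolved libraries 3 and 6 were closer to each other than any other pair in a group (SD of log2 differences 0.11 against 0.22 for the next pair) and were counted as 1 sample. One further 10-month library, of a vehicle mouse and labelled as a tumor, was kept out of the comparisons.

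Gpnmb separated the samples into high and low sets. In 10 high-risk livers of 5 months its level ran from 7.69 to 63.1 CPM with a median of 41.8 CPM, and in 16 low-risk livers from 0.244 to 3.70 CPM with a median of 0.957 CPM. These groups did not overlap, and high-risk 1 and 22, at 7.69 and 9.82 CPM, were the lowest of their group. At 10 months the 5 uninvolved samples had 40.6, 23.04, 58.8, 43.3 and 90.7 CPM. The 5 low-risk livers of that age had 0.275, 0.583, 0.677, 0.279 and 1.11 CPM, all below the lowest uninvolved sample. Tumors ran from 11.7 to 51.5 CPM (median 30.6) and 10-month vehicles from 0.499 to 1.61 CPM (median 0.805).

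By median, Gpnmb was highest in uninvolved livers, followed by 5-month high-risk livers and tumors. Below these came 3-week TBT livers (0.998 CPM), 5-month low-risk livers, 10-month vehicles, 3-week vehicles (0.705 CPM), 5-month vehicles (0.648 CPM) and 10-month low-risk livers. The ranges of neighbours in this order overlapped, apart from tumors and 3-week TBT livers (0.493 to 1.72 CPM). In the 8 vehicles of 5 months the range was widest, from 0.153 to 96.9 CPM. Vehicle 4 had 29.8, vehicle 6 had 96.9 and vehicle 9 had 5.13 CPM, and the other 5 had at most 0.731 CPM.

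**Figure D1:**
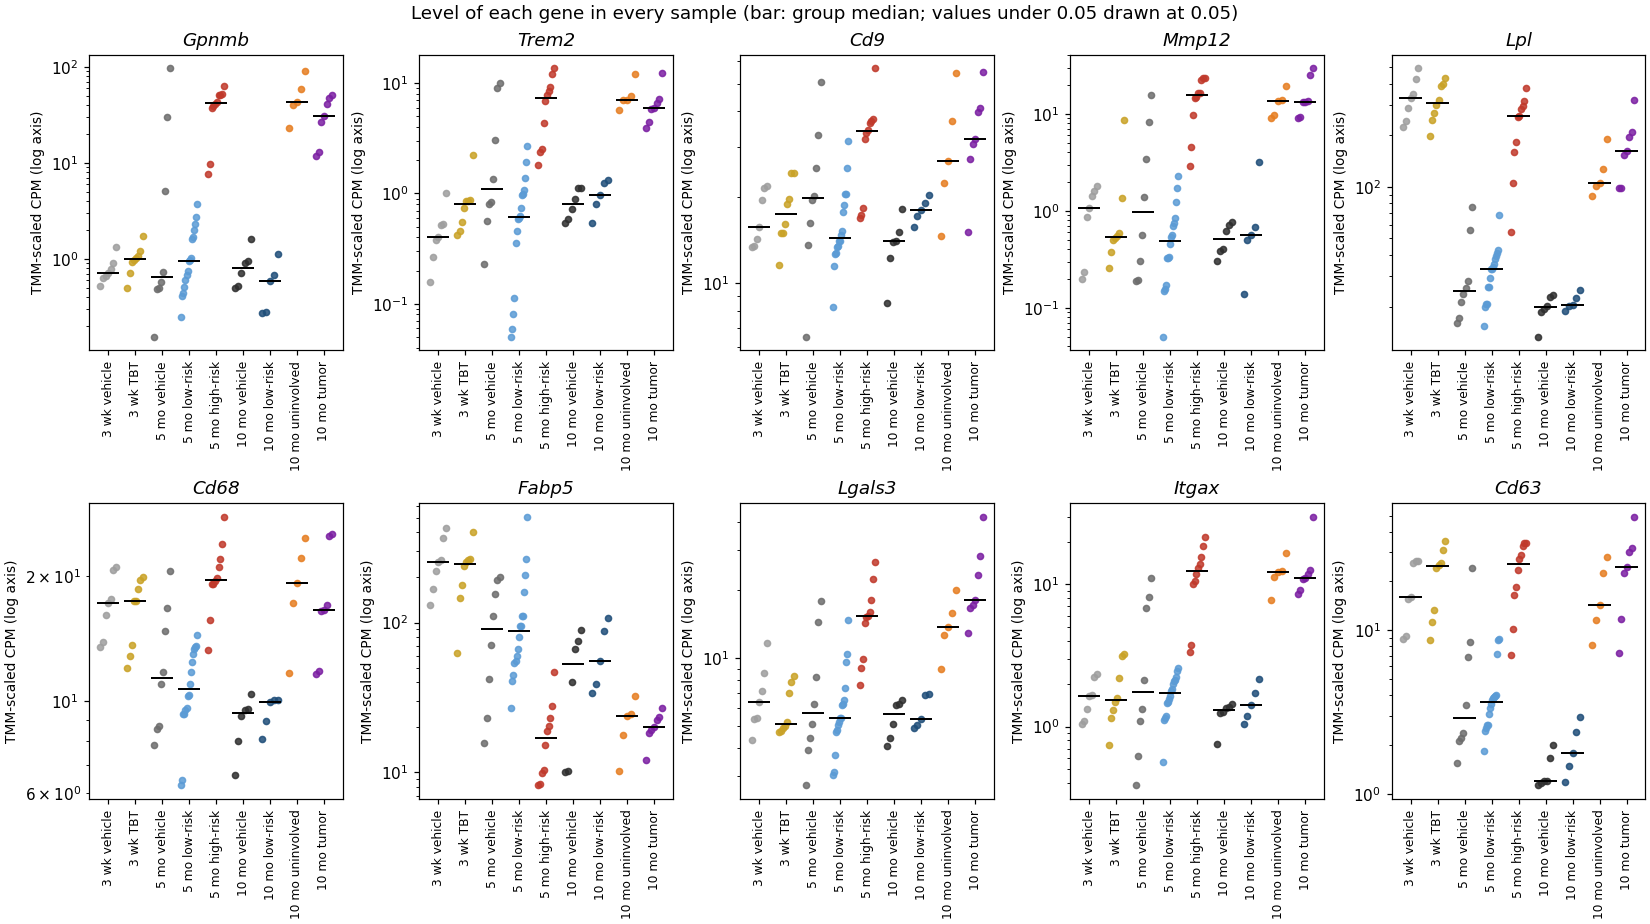
Level of each of the 10 genes (TMM-scaled CPM, log axis) in 72 samples of 9 groups, with a point per sample and a bar at the group median. Gpnmb, Mmp12, Trem2 and Itgax are high in 5-month high-risk livers and in uninvolved livers and tumors of 10 months, whereas Lpl and Cd63 are also high at 3 weeks. By median, Fabp5 is highest at 3 weeks and lower in high-risk livers, uninvolved livers and tumors than in every other group shown.

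Tumors were compared with vehicle livers of 10 months, whose libraries are shared with the uninvolved contrast that helped to choose the genes. By title, 6 of the 7 tumors also carry the mouse number of an uninvolved liver. The comparison is therefore not independent of the choice of genes. Among receptors and surface proteins, Trem2 ran from 3.91 to 12.3 CPM (median 5.91) in 7 tumors and from 0.537 to 1.13 CPM (median 0.803) in 6 vehicles. Itgax ran from 8.54 to 29.9 CPM (median 11.1) against 0.756 to 1.44 CPM (median 1.31). Neither gene overlapped between the groups, and tumor 11 had the highest level of both. Trem2 rose by a log2 fold change of 3.01 (SE 0.28, adjusted p 3.99e-06) and Itgax by 3.44 (SE 0.31, adjusted p 3.14e-06; edgeR quasi-likelihood test, Benjamini-Hochberg adjustment over 15293 genes; adjusted p-values of other comparisons come from the same test over the genes tested there, unless DESeq2 is named). Cd9 rose less, by 1.34 (SE 0.25, adjusted p 0.000596), from 13.7 ± 3.21 CPM (SD, n = 6) to 34.4 ± 12.5 CPM (n = 7). Its groups overlapped through tumor 7, at 15.1 CPM.

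Of the lysosomal genes, Gpnmb rose by 5.21 (SE 0.45, adjusted p 3.83e-06). Cd63 ran from 7.21 to 49.3 CPM (median 24.5) in tumors and from 1.13 to 1.99 CPM (median 1.20) in vehicles, and rose by 4.20 (SE 0.42, adjusted p 1.06e-05). Cd68 is listed as a general macrophage marker and moved least of the genes that rose, by 1.01 (SE 0.18, adjusted p 0.00053), from 8.88 ± 1.33 to 17.7 ± 5.54 CPM. Each of these 3 genes was higher in every tumor than in every vehicle.

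Among secreted proteins, Mmp12 ran from 9.11 to 29.4 CPM (median 13.3) in tumors and from 0.307 to 0.758 CPM (median 0.510) in vehicles. Its log2 fold change was 4.94 (SE 0.36, adjusted p 7.77e-07). Lpl ran from 98.0 to 321 CPM (median 161) in tumors and from 13.3 to 23.2 CPM (median 19.8) in vehicles, a rise of 3.19 (SE 0.27, adjusted p 2.85e-06). Lgals3 rose by 2.08 (SE 0.25, adjusted p 3.03e-05), from 5.42 ± 1.03 to 22.7 ± 10.0 CPM. All 3 were without overlap, and tumor 11 was again the highest for each.

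Fabp5 went the other way. It ran from 12.1 to 26.8 CPM (median 20.01) in tumors and from 10.1 to 88.8 CPM (median 53.0) in vehicles, so the groups overlapped, with vehicles 4 and 7 at the low end. It fell by 1.24 on the log2 scale (SE 0.46, adjusted p 0.0395). That call was lost on leaving out tumor 1, 3, 5, 6, 7 or 12 in turn, with no filter on low counts and with plain CPM. In each of these alternatives 9 members rose and 0 fell. In the main fit 9 of 10 members rose and 1 fell, against 45.9% of all genes tested called in this comparison. Of the 10, 8 did not overlap between tumors and vehicles, against 20.4% of all genes. Neither count is independent of the choice of genes. With the vehicle mouse's tumor-labelled library added to the vehicles, 7 members rose and 0 fell, with Gpnmb at 1.97 and Cd68 at 0.66 not called. Against the 5 low-risk livers of 10 months 9 members rose and 1, Fabp5, fell, with 36.7% of 15557 genes called, and Gpnmb was 5.79 (SE 0.54) higher. These low-risk libraries are also shared with the contrast that helped to choose the genes.

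Between tumors and uninvolved liver of high-risk mice, whose libraries served to choose the genes, no member passed the test. In edgeR 0 of the 10 were called (18.1% of 16362 genes were), 1 had an unadjusted p under 0.05 and DESeq2 also called 0. Gpnmb was 31.8 ± 15.8 CPM (SD, n = 7) in tumors and 51.3 ± 25.4 CPM (n = 5) in uninvolved liver, a log2 difference of -0.70 (SE 0.40, adjusted p 0.227). Lgals3 was 22.7 ± 10.0 against 14.2 ± 4.08 CPM, a difference of 0.66 (SE 0.27, adjusted p 0.0966). With the mouse number as a replicate block over 6 pairs Lgals3 was called, at 0.42 (SE 0.10, adjusted p 0.0358). In that fit the near-identical uninvolved libraries 3 and 6 entered as separate mice. Over the 4 pairs without mice 3 and 6 it was 0.57 (adjusted p 0.0187), and Lpl was called as well, at 0.52 (adjusted p 0.0331), which made 2 members. Over the same 4 pairs Gpnmb was -1.07 (SE 0.31, adjusted p 0.0525). Gpnmb was chosen in part for its high level in these uninvolved livers, which favours a lower value in tumors. The p-values of this comparison are thus not independent of the choice of genes, and nothing is read from them.

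**Figure D2:**
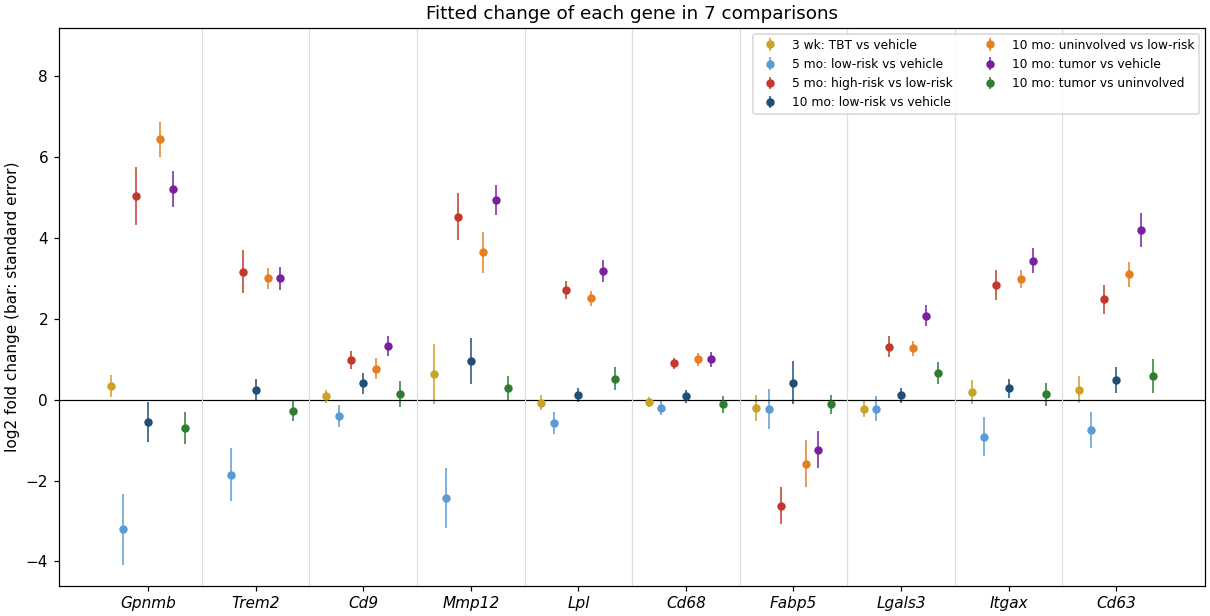
Log2 fold change of each gene in 7 comparisons, with the standard error of the fit as bars. The changes of tumors against vehicles sit above 0 for 9 genes and below 0 for Fabp5, and those of tumors against uninvolved liver lie between -0.70 and 0.66.

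In the contrasts that served to choose the genes, the sizes are given without a test. Between high-risk and low-risk livers of 5 months, the log2 fold changes were 5.05 (SE 0.72) for Gpnmb, 4.53 (SE 0.58) for Mmp12, 3.16 (SE 0.53) for Trem2, 2.84 (SE 0.37) for Itgax, 2.71 (SE 0.22) for Lpl and 2.48 (SE 0.35) for Cd63. Those of Lgals3, Cd9 and Cd68 were 1.31, 0.98 and 0.90, and that of Fabp5 was -2.62 (SE 0.46). All 10 were among the 38.9% of genes called there, a count that follows from the choice of genes and from which nothing is read. Within batch 1 (3 against 6 samples) Gpnmb was 4.97 and within batch 2 (7 against 10) it was 5.02 higher. Between uninvolved and low-risk livers of 10 months, Gpnmb was 6.44 (SE 0.44), Mmp12 3.65 (SE 0.51) and Fabp5 -1.58 (SE 0.57), with 10 members among the 52.4% called. The call of Fabp5 was lost in 8 of 18 alternatives, among them no filter, plain CPM and leaving out low-risk 2 or 4 or uninvolved 1, 3 with 6, 5 or 7. Against 10-month vehicles 9 members were among the 57.7% of genes called higher or lower, and Fabp5, at -1.16 (SE 0.55), was not. Nothing is read from the calls of these 10-month contrasts or from their loss, as the contrasts served to choose the genes.

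Against vehicles of 5 months, also a description from which nothing is read, 6 members were called higher and 1 lower, with 15.8% of genes called, and Gpnmb, at 1.84 (SE 0.90), Trem2 and Cd9 were not called. Without vehicle 6 the value of Gpnmb was 3.40 and 9 members were called, and without vehicle 4 it was 2.01. Leaving out vehicle 8 left 4 calls, and batch 1 alone gave 0. Vehicle 8 was the only 5-month vehicle of batch 2, which held 7 of the 10 high-risk and 10 of the 16 low-risk livers. Contrasts of either risk group with these vehicles thus lean on this library within batch 2.

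The difference between the risk groups at 10 months, less that at 5 months, rests on contrasts that served to choose the genes, so it too is a description. It was 1.44 (SE 0.65) for Gpnmb and -0.89 (SE 0.72) for Mmp12. In edgeR 0 of the 10 genes were among the 0.448% of 16084 genes called (1 had an unadjusted p under 0.05, and DESeq2 called 0 members).

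Low-risk TBT livers were not called apart from vehicles at either age. At 10 months 0 of 10 members were called, 0 had an unadjusted p under 0.05, and 0.0% of 16338 genes were called, while 688 of all genes had an unadjusted p under 0.05. DESeq2 called 1 gene there, which is not a member. Gpnmb was 0.585 ± 0.346 CPM (n = 5) in low-risk livers and 0.863 ± 0.409 CPM (n = 6) in vehicles. At 5 months edgeR called 0 members (0.0% of 14773 genes, with 934 at an unadjusted p under 0.05), but 4 had an unadjusted p under 0.05: Gpnmb at -3.20 (SE 0.88), Mmp12 at -2.43 (SE 0.74), Trem2 at -1.85 (SE 0.65) and Lpl at -0.57 (SE 0.26). DESeq2 called Gpnmb (adjusted p 0.0252) and Mmp12 (adjusted p 0.0465), among 0.352% of genes. Without vehicle 6 the edgeR value of Gpnmb was -1.63 (adjusted p 0.937) and without vehicle 4 it was -3.03 (adjusted p 0.752). The medians of Gpnmb, 0.957 CPM in low-risk livers and 0.648 CPM in vehicles, had the opposite order to the fitted means.

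At 3 weeks no member was called between TBT and vehicle livers. Of 9 members tested (Trem2 had too few counts) 0 were called and 0 had an unadjusted p under 0.05, with 0.0% of 14050 genes called and 474 genes at an unadjusted p under 0.05. DESeq2 called 2 genes of all and 0 members. Gpnmb was 1.01 ± 0.363 CPM (SD, n = 8) in TBT and 0.791 ± 0.263 CPM (n = 7) in vehicle livers, a difference of 0.34 (SE 0.28, adjusted p 0.999). Mmp12 was at most 1.79 CPM in every 3-week liver but TBT 5, which had 8.73 CPM and also the highest Trem2 of the age, 2.22 CPM.

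With age the members took different paths in vehicle livers. Lpl ran from 224 to 490 CPM (median 330) in 7 vehicles of 3 weeks and from 16.1 to 76.1 CPM in the 7 vehicles of 5 months of batch 1, without overlap. It fell by 3.30 on the log2 scale (SE 0.31, adjusted p 1.35e-07). Cd63 was 18.3 ± 7.90 CPM at 3 weeks and 6.78 ± 8.05 CPM at 5 months, and it fell by 1.44 (SE 0.51, adjusted p 0.0462). That call was lost with no filter (adjusted p 0.18) and on leaving out vehicle 1, 2, 3, 4 or 5, and without vehicle 6 the value was -2.33. Fabp5 was 262 ± 106 CPM at 3 weeks and 93.6 ± 77.0 CPM at 5 months (-1.496, SE 0.55, adjusted p 0.0538). At 3 weeks, by contrast, Gpnmb was at 0.791 ± 0.263 and Trem2 at 0.463 ± 0.271 CPM.

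Gpnmb, Trem2 and Itgax were called higher at 5 months than at 3 weeks, by 4.58 (SE 1.14, adjusted p 0.00605), 2.90 (SE 0.69, adjusted p 0.00387) and 1.44 (SE 0.50, adjusted p 0.0393). Together with Lpl and Cd63 this made 5 members called, against 24.2% of 14962 genes. Gpnmb of vehicles 4, 6 and 9 lay above every 3-week vehicle, which had at most 1.32 CPM, and the other 4 had 0.153 to 0.731 CPM. Without vehicle 6 the value of Gpnmb was 2.96 (adjusted p 0.0204), and that of Itgax, 0.997 (adjusted p 0.144), was not called, nor was Itgax without vehicle 4 or 9 (adjusted p 0.0904 and 0.0526). Without vehicle 4 the count was 3 and Gpnmb was 4.45. From 5 to 10 months 6 members fell (14.1% of genes were called), with Gpnmb at -4.52 (SE 1.17, adjusted p 0.0167) and Mmp12 at -3.05 (SE 0.83, adjusted p 0.0197). With no filter 0 of these calls were left (Gpnmb at an adjusted p of 0.0564), and with vehicles of both batches 3 were. Without vehicle 6 the count was 2, with Gpnmb at -2.89 (adjusted p 0.0484) and Mmp12 at -2.16 (adjusted p 0.0639). Without vehicle 4 it was 3, with Gpnmb at -4.38 and Mmp12 at -2.80. Vehicle 4 or 6 stayed in each of these fits, so they cannot show whether the changes with age rest on the pair. The median of Gpnmb was 0.705 CPM in 3-week vehicles, 0.731 CPM in 5-month vehicles of batch 1 and 0.805 CPM in 10-month vehicles.

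**Figure D3:**
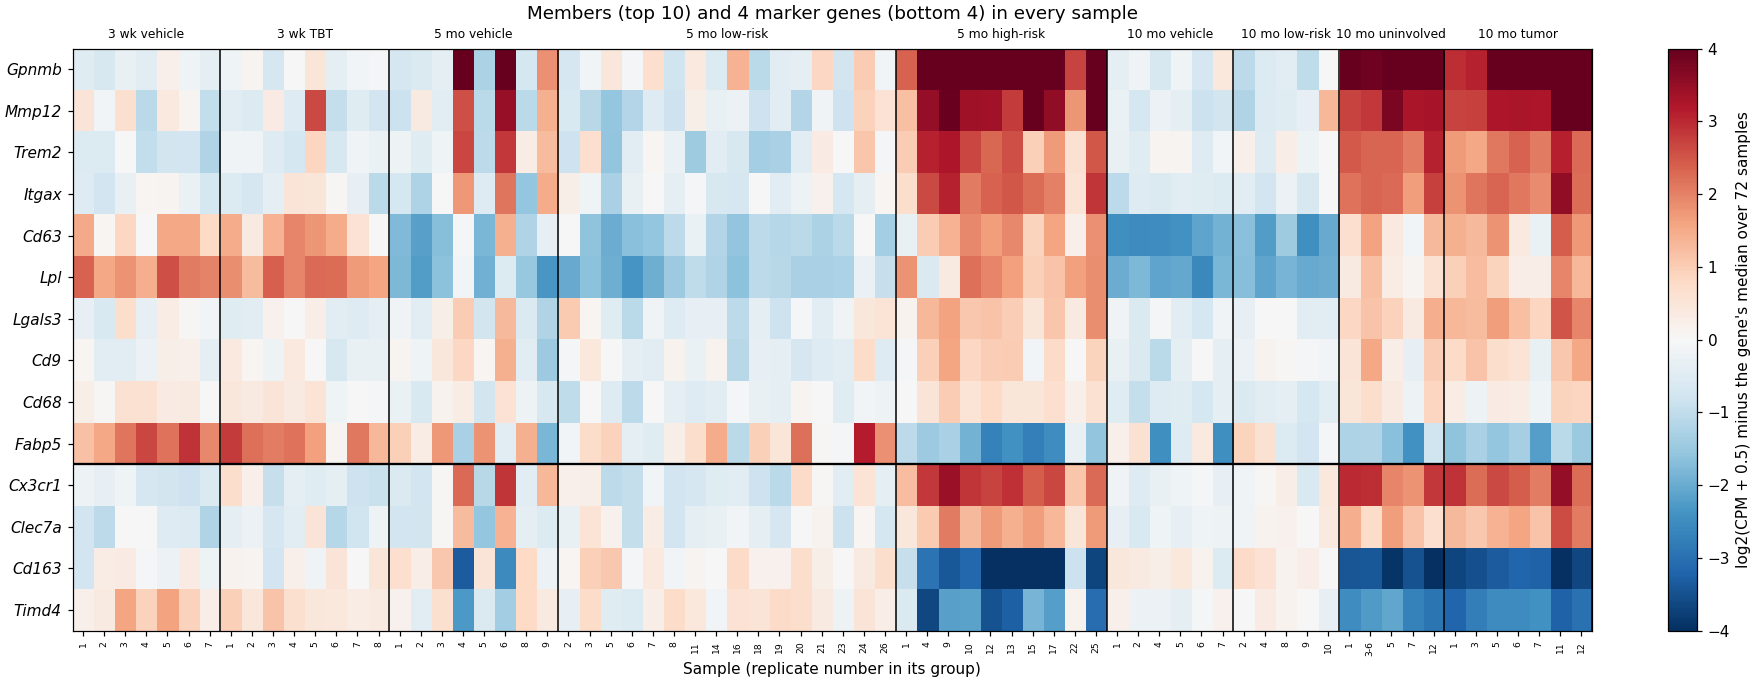
Heat map of log2(CPM + 0.5) minus the gene's median over 72 samples, for the 10 genes (above the line) and for Cx3cr1, Clec7a, Cd163 and Timd4 (below it), with samples in columns by group. The columns of 5-month vehicles 4 and 6 are dark red for Gpnmb and blue for Cd163, as those of high-risk livers are, and the columns of high-risk 1 and 22 are paler.

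Among the members, those with the levels closest to Gpnmb over 72 samples were Mmp12 (Pearson r 0.93), Itgax (0.93) and Trem2 (0.91), among 12318 genes averaging 1 CPM or more. The r of Lgals3 was 0.79, of Cd9 0.64, of Cd68 0.64, of Cd63 0.59 and of Lpl 0.38, and that of Fabp5 was -0.71. All values share the same libraries, and their order is a description. The genes most like Gpnmb by this measure were Myof, a membrane repair protein, at 0.93, then Mmp12, Itgax, the chemokine receptor gene Cx3cr1 (0.93), Svep1 (0.92) and Wfdc15b (0.92). After each group's mean was subtracted, the first 6 were Dkk3 (0.77), Dpt (0.75), Mmp12 (0.75), Svep1 (0.73), Fam180a (0.73) and Olfml3 (0.72). Trem2 ranked 7 and Itgax 9 on that measure, at 0.72 and 0.71, close behind Mmp12. The other members were lower on it: Cd63 at 0.50, Cd68 at 0.50, Lgals3 at 0.44, Cd9 at 0.29, Lpl at 0.21 and Fabp5 at -0.38. Dpt, which encodes the matrix protein dermatopontin, and Olfml3 are genes of extracellular proteins.

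Because the levels of Trem2, Mmp12 and Itgax were the closest to that of Gpnmb among the members, the promoters were searched for letters that factors of macrophages and lysosomes bind. Windows from 250 bases before to 50 after a start were taken from RefSeq (GRCm38.p6), which gave 9 windows for 8 of the 10 members. The AP-1 letters TGANTCA, which read the same on both strands, were in windows of 5 of these 8 genes (Gpnmb, Trem2, Mmp12, Itgax and Cd68), against 7.81% of 32851 promoters. CACGTG, the core bound by Mitf and Tfeb, was in 0 of 8 (7.15% of promoters), TCATGTG in 1, Mmp12 (3.77%), and GAGGAA, bound by PU.1, in 4 (28.3%), on either strand. The 4 windows of Gpnmb and these genes are shown 5′ to 3′ with the AP-1 letters in capitals: chr6:49036268-49036567 for Gpnmb, chr17:48346151-48346450 for Trem2, chr9:7347124-7347423 for Mmp12 and chr7:128129300-128129599 for Itgax, all on the plus strand.
Gpnmb: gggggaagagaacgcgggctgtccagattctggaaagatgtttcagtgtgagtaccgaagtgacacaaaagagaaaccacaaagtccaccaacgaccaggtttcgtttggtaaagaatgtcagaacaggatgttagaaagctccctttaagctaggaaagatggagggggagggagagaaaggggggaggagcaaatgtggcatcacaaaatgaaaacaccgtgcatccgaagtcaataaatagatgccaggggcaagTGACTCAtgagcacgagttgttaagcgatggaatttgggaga
Trem2: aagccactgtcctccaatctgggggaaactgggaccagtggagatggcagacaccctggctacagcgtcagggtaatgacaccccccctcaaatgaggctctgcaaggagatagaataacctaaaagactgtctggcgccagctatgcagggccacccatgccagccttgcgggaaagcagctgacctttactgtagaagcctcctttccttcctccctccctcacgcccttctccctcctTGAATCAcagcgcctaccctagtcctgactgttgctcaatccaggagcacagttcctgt
Mmp12: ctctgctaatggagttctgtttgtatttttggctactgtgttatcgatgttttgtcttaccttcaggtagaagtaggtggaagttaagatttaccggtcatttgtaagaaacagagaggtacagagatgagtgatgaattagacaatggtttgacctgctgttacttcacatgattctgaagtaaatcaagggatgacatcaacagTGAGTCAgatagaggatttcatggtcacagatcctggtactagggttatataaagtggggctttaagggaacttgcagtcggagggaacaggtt
Itgax: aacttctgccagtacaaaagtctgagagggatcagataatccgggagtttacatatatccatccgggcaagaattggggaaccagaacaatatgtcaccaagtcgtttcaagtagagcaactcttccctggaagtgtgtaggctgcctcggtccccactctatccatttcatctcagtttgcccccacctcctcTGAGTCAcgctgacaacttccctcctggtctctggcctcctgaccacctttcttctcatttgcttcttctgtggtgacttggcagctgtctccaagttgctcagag
In Trem2 the match begins 9 bases, in Mmp12 44 bases and in Itgax 56 bases before the start, and in Gpnmb 8 bases after it. The Mmp12 window belongs to a start inside the gene, and its other window holds no AP-1 letters. These matches describe the sequence only, and no binding was measured.

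High-risk livers 1 and 22 show how the members split. They had 2.51 and 1.80 CPM of Trem2, 2.90 and 4.497 CPM of Mmp12 and 3.73 and 3.32 CPM of Itgax. The other 8 high-risk livers had at least 9.61 CPM of Mmp12 and 10.1 CPM of Itgax, whereas high-risk 15 had 2.39 CPM of Trem2. Lpl was nonetheless high in livers 1 and 22, at 286 and 256 CPM. Their Cd163 was 10.1 and 10.8 CPM, against at most 2.13 CPM in the other 8.

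Lpl differed between the sequencing batches as well. In batch 1 the 3 high-risk livers had 54.4, 106 and 160 CPM and the 6 low-risk livers from 15.5 to 26.05 CPM. In batch 2 the 7 high-risk livers ran from 184 to 378 CPM and the 10 low-risk livers from 29.4 to 68.5 CPM. Neither risk group overlapped between batches, although high-risk livers were above low-risk livers within each (log2 differences of 2.33 in batch 1 and 2.86 in batch 2). Gpnmb overlapped between the batches in both risk groups. The part of the batch in the level of Lpl was not tested further.

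**Figure D4:**
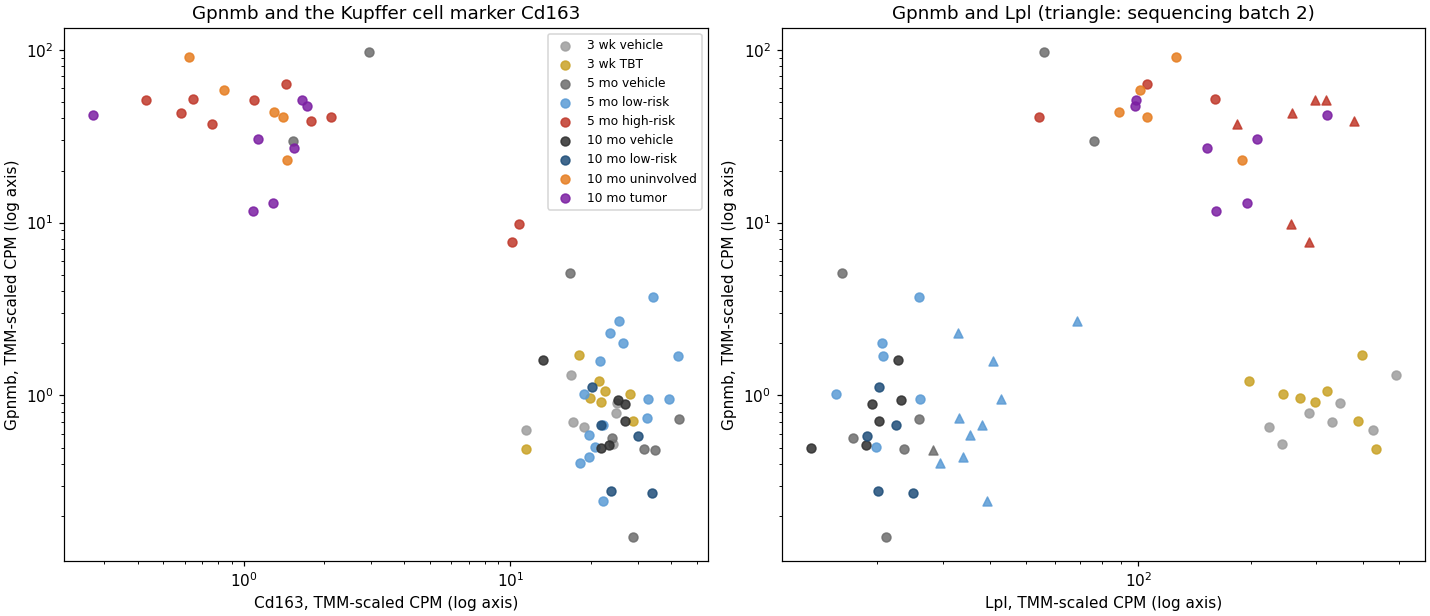
Gpnmb against the Kupffer cell marker Cd163 (left) and against Lpl (right), all in TMM-scaled CPM on log axes, with a point per sample and triangles for sequencing batch 2. Samples with Gpnmb above 11 CPM have Cd163 under 3 CPM, and the 3-week livers combine high Lpl with low Gpnmb.

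Compared per kilobase of exon, so that genes of different length can be set side by side, the 10 genes had the following median levels in tumors. Cd9 (15.6 CPM per kb), Lpl (15.4) and Cd68 (13.2) were highest, Lgals3 (9.70), Cd63 (6.65), Fabp5 (5.61) and Gpnmb (4.69) came next, and Itgax (2.30), Mmp12 (1.84) and Trem2 (1.19) were lowest. In 10-month vehicles Fabp5 led with 14.9 CPM per kb, ahead of Cd68 (7.44) and Cd9 (6.86), and Gpnmb (0.124), Trem2 (0.162) and Mmp12 (0.0705) were near the bottom.

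Other genes of the lipid-associated macrophage and lysosome pathway moved in part. Of 32 listed genes 30 were tested in tumors against vehicles, and 15 rose and 3 fell, with a median of 0.27, against 24.8% of all genes called higher, 3216 genes called lower and a median of -0.01. Clec7a, the beta-glucan receptor Dectin-1, rose by 2.08 (SE 0.24, adjusted p 2.3e-05) and the fatty acid transporter Cd36 by 2.01 (SE 0.38, adjusted p 0.000875). Anxa5, which binds phosphatidylserine, rose by 1.80 (SE 0.24) and the protease gene Ctss by 1.26 (SE 0.20), both called. The 3 that fell, named after their values were seen, were Apoe (-0.38), Lipa (-0.36) and Lamp2 (-0.39), which hepatocytes also express. Mitf, which encodes a transcription factor of lysosome genes and was also picked after its value was seen, was at -0.08 (SE 0.11, adjusted p 0.584). Of 31 tested between tumors and uninvolved liver 2 were higher in tumors, the osteopontin gene Spp1 (1.49, SE 0.43) and Cd36 (1.08, SE 0.32).

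Kupffer cell markers moved in both directions. Cd163, a haemoglobin scavenger receptor, ran from 0.273 to 1.73 CPM in tumors and from 13.3 to 27.0 CPM in vehicles (log2 fold change -4.19, SE 0.28). Timd4 was 0.622 ± 0.255 against 6.76 ± 1.22 CPM (-3.43, SE 0.24), and Clec4f 61.6 ± 18.9 against 113 ± 11.5 CPM (-0.85, SE 0.19). The complement gene C1qb rose by 0.54 (SE 0.17, adjusted p 0.019). Of 12 Kupffer markers 5 fell and 3 rose, and their sum was 347 to 590 CPM in tumors and 462 to 615 CPM in vehicles. In 5-month vehicles 4 and 6 Cd163 was at 1.53 and 2.95 CPM, against 16.7 to 42.7 CPM in the other 6.

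Monocyte markers moved with the members: 8 of 8 rose in tumors, and their sum was 29.6 to 72.9 CPM against 11.3 to 16.3 CPM in vehicles. Cx3cr1 rose by 3.25 (SE 0.24, adjusted p 1e-06), Ccr2 by 2.04 (SE 0.26) and Ly6c2 by 1.84 (SE 0.39). Of 7 dendritic cell markers 6 rose (sum 15.8 to 21.6 against 10.4 to 13.6 CPM), as did 5 of 5 tested of T and NK cells (3.68 to 8.56 against 1.02 to 1.88 CPM), 1 of 4 of B cells and 0 of 2 of neutrophils. Itgax is itself a dendritic cell gene, and the part of these cells in the members' levels was not tested. Outside the blood lineage, 4 of 7 stellate cell markers rose and 1 fell, led by Col1a1 (3.73, SE 0.30). Likewise 5 of 5 cholangiocyte markers, 5 of 5 proliferation genes and 3 of 4 fetal and tumor genes rose, 4 of 6 hepatocyte genes fell, and of 6 endothelial markers 2 rose and 3 fell. The part of these cell types was not tested either.

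Cell types that use Gpnmb or Lpl for their own ends were looked at separately. Gpnmb is also a gene of melanocytes and osteoclasts. Of the melanocyte list Dct fell by 3.42 on the log2 scale (SE 0.33) in tumors, where it was 1.07 ± 0.712 against 11.6 ± 1.90 CPM in vehicles, and the list's sum was 0.743 to 2.63 against 10.1 to 15.1 CPM. Of 2 osteoclast markers tested 0 were called, and the sum of the list was 76.7 to 94.3 CPM in tumors and 85.5 to 97.2 CPM in vehicles. Lpl is a gene of fat cells, and 3 of 3 adipocyte markers tested rose in tumors, Plin1 by 3.77 (SE 1.04), Adipoq by 3.71 (SE 1.11) and Cfd by 2.93 (SE 0.93). The sum of this list was 0.307 to 39.2 CPM in tumors and 0.0399 to 4.36 CPM in vehicles. The tumor with the highest Lpl, tumor 11 at 321 CPM, had Adipoq at 0 CPM and Plin1 at 0.0341 CPM, and tumor 5, with the highest Adipoq at 8.49 CPM, had Lpl at 152 CPM. High-risk livers 1 and 22 of 5 months, described above as high in Lpl, had the most adipocyte RNA of their group. Adipoq was 4.42 and 1.18 CPM in them, and Plin1 3.66 and 1.25 CPM. The part of fat cells in the level of Lpl was not tested.

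The 10 genes lie on 9 chromosomes of GRCm38: Gpnmb on chromosome 6 (49036546 to 49070929), Trem2 on 17 (48346401 to 48354147), Cd9 on 6 (125460266 to 125494791), Mmp12 on 9 (7344381 to 7369499), Lpl on 8 (68880491 to 68907448), Cd68 on 11 (69664213 to 69666153), Fabp5 on 3 (10012548 to 10016607), Lgals3 on 14 (47367751 to 47386160), Itgax on 7 (128129547 to 128150657) and Cd63 on 10 (128900989 to 128912822). Mmp12 shares 157 exon bases with Mmp1b and Cd9 shares 218 with Gm26728, both on the opposite strand, and the strand setting of the counting is not given in the sources used here. Over all libraries these neighbours had 22 and 91 counts, against 10795 for Mmp12 and 38481 for Cd9. The near-copies Cd63-ps and Fabp5l2 had 316 and 40 counts, against 21581 for Cd63 and 127533 for Fabp5.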

How the data were processed

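Liver RNA was sequenced from stranded total RNA libraries (Illumina TruSeq), per the labels' protocols. The deposited table holds whole-number counts per gene, which the authors adjusted between batches with ComBat-seq, per the file name. Trim Galore, HISAT2 and featureCounts with the mm10 build are named in the submitters' processing notes, and their versions and strand setting are not given in the sources used here. All 55536 identifiers match GENCODE M21 (GRCm38).

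Groups follow the labels. A pair of libraries of 3-week vehicle mouse 3, and uninvolved libraries 3 and 6, were summed. Nothing in the labels says more on how replicates were raised, so p-values measure the spread between these samples. Genes passing filterByExpr were tested with edgeR 4.0.16 (R 4.3.3) by robust quasi-likelihood F tests after TMM scaling, with Benjamini-Hochberg adjustment at 0.05 over all genes tested. Sequencing batch was a covariate at 5 months and in the interaction, ages were compared in batch 1 only, and tumors were fitted with 1 other group at a time. Standard errors are those implied by F. The fits were also run on simulated counts with known changes. The simulation held no batch effect and no samples unlike the rest of their group, so it does not bear on these. Likeness to Gpnmb is Pearson r of log2(CPM + 0.5).

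The members and lists were chosen with earlier results of these data known. Named genes are the 10 members, up to 4 genes a list with the smallest adjusted p in 5-month high-risk against low-risk livers, and the 6 genes most like Gpnmb on each measure. One gene that this rule names is not reported here. Titles give tumors and uninvolved livers the same mouse number in 6 pairs. The correlation of their deviations from the group means ran from -0.426 to 0.721 (median 0.1). In the 36 pairs of different numbers it ran from -0.609 to 0.482 (median -0.0025), so the ranges overlapped and do not settle the pairing. Alternatives were RLE size factors, no filter, DESeq2 1.42.0, plain CPM, other sets of groups or batches, replicate blocks, and fits without single samples or without the 6 libraries that stood apart (under 5 M counts, over 35000 genes with a count or over 10% mitochondrial counts). Of these, plain CPM and leaving out single tumors or 5-month vehicles were chosen after seeing the data.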

Additional observations from a re-analysis of the deposited data

Results flagged for a closer look

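Of 80 combinations of a member and a group of 4 to 10 samples, 10 held a sample that stood far from the others on unlogged CPM. The cut-offs used hold for normally distributed and independent values. Unlogged CPM need not be normal, and the members share samples, so this count is not set against chance. In 5-month vehicles, the library of vehicle 6 had 96.9 CPM of Gpnmb against 29.8 CPM in the next, and 23.99 CPM of Cd63 against 8.43 CPM. Tumor 11 had 12.3 CPM of Trem2 and 29.9 CPM of Itgax, where the next tumors had 7.17 and 12.6 CPM. The 3-week TBT liver 5 had 2.22 CPM of Trem2 and 8.73 CPM of Mmp12, where the next had 0.865 and 1.36 CPM. High-risk liver 9 of 5 months had 56.5 CPM of Cd9 against 37.6 CPM in the next, and high-risk liver 22 had 46.6 CPM of Fabp5 against 27.8 CPM. The 10-month low-risk liver 10 had 3.20 CPM of Mmp12 against 0.681 CPM in the next. Itgax in 10-month vehicle 1 was low, at 0.756 CPM, with the next at 1.24 CPM.

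The 10-month vehicle library labelled as a tumor was used in no comparison. In it 8 of 10 members lay above every other vehicle library of that age. Gpnmb was 51.8 CPM (at most 1.61 CPM in the other vehicles), Mmp12 15.8 (0.758), Itgax 13.1 (1.44), Cd63 19.5 (1.99), Lpl 177 (23.2), Trem2 4.30 (1.13), Cd68 22.7 (10.4) and Lgals3 11.03 CPM (6.50). It is a single library with 14.1% mitochondrial counts, and its Cd163 was 1.17 CPM.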

How the results depend on the processing

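Of 178 counts of called members under alternatives, 162 stayed within 1.5 times the main count, and of 942 fold changes of called members 81 were no longer called and 0 changed sign. High-risk against low-risk livers of 5 months gave 5 called members in batch 1 alone (main 10). High-risk livers against vehicles (main 7) gave 4 with no filter or with only these groups, 0 in batch 1 alone, and 4 to 9 on leaving out each vehicle. Both contrasts use the high-risk livers that served to choose the genes, so these counts are a description from which nothing is read. Low-risk livers against vehicles at 5 months gave 2 with DESeq2 and 1 without the batch covariate (Gpnmb). Tumors against uninvolved liver (main 0) gave 1 with all 10-month groups in a fit, 1 with the replicate block over 6 pairs and 2 over 4 pairs. The uninvolved libraries served to choose the genes, so nothing is read from these counts either. Vehicles of 5 months against 3 weeks (main 5) gave 3 with no filter and 3 to 6 on leaving out a vehicle. Those of 10 against 5 months (main 6) gave 0 with no filter, 3 with vehicles of both batches and 2 to 8 on leaving out a vehicle. The causes were not tested. Genes under 1 CPM, such as Trem2 in most vehicles, rest on few counts, and small changes in them were not detectable.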
